A study of Bos taurus with 29 samples.

Results

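Cattle oocytes taken before and after conventional in vitro maturation were compared across all expressed genes, each library being the messenger RNA of 1 oocyte. The comparison held 15 of the 22 oocytes in the table, out of 29 labelled samples: 7 germinal vesicle (GV) oocytes and 8 oocytes after in vitro maturation (IVM), chosen by their sample titles. All were labelled wild type (WT). Their donors had been given FSH before the follicles were aspirated through the vagina under ultrasound. The GV oocytes were stripped of cumulus cells without culture. IVM oocytes were cultured inside their cumulus cells for 22 h in serum-containing TCM199 with 50 ng/mL EGF and 5 µg/mL FSH, then stripped and checked for a polar body. Which animal or dish an oocyte came from is not labelled, so a whole group may come from 1 animal, and each group counted as 1 sample. No test was therefore run: values are the lowest, median and highest oocyte, and the spread shown is between oocytes, not animals. The 7 oocytes exposed to C-type natriuretic peptide (CNP) served here only in the filter on low values and in the trimmed-mean factors of 1 alternative scaling.

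At the GV stage a fully grown oocyte is held in prophase of the first meiotic division, with its chromosomes inside a large nucleus and a store of messenger RNA made during growth. When meiosis resumes the nuclear envelope breaks down, a spindle forms, a polar body is pushed out and the egg stops again at metaphase II (MII). Transcription is largely silent through this period, and stored transcripts are translated, deadenylated or degraded on a schedule that differs from gene to gene. The libraries were primed on poly(A) tails and expressed as CPM, a read count relative to the total of its library, so each level is a share of a library's polyadenylated RNA. Amounts per oocyte and tail lengths were not measured.

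The 15 libraries held 20159662 to 39340039 reads. At least 1 CPM was found for 9431 to 10783 genes in the IVM oocytes and for 11311 to 11798 genes in 6 of the GV oocytes. The seventh, GV replicate 9, had 9381, and its labels conflict: the title says GV and the treatment field says in vitro maturation. Spearman's rho over genes was 0.95 to 0.98 among the other 6 GV oocytes and 0.87 to 0.97 among IVM oocytes. GV replicate 9 reached 0.76 to 0.79 with the other GV oocytes and 0.58 to 0.66 with IVM oocytes, below the 0.75 to 0.82 found between the other GV oocytes and IVM oocytes. Of 6383 genes at 10 CPM or more in each of the other GV oocytes, 344 (5.39%) were under 1 CPM in this oocyte, against at most 1 for any other GV oocyte. Most results were therefore also computed without it, though not the counts of higher and lower markers.

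**Figure D1:**
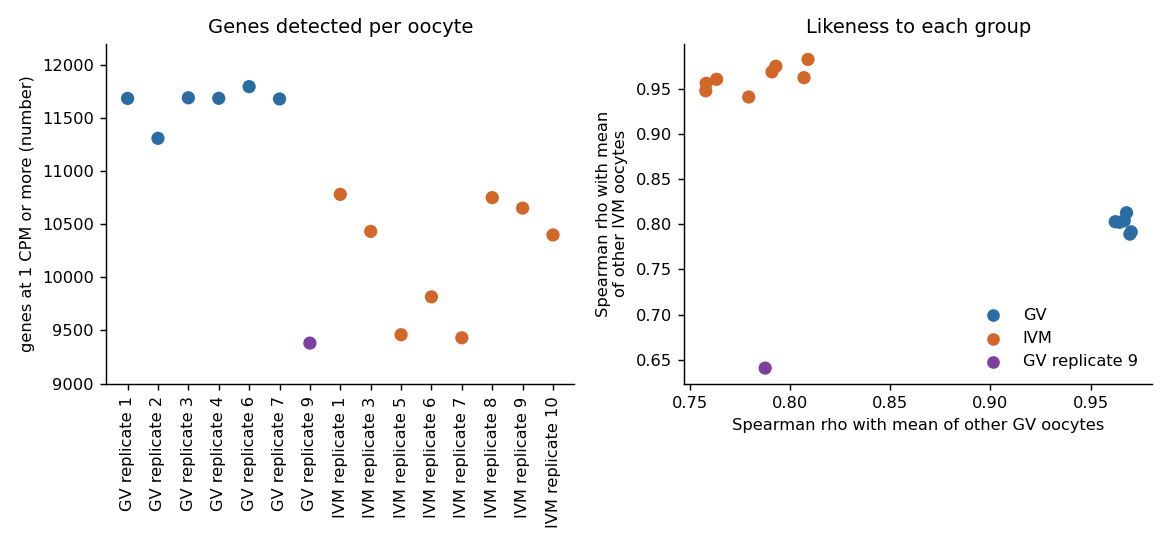
Left, how many genes reached 1 CPM in each oocyte; right, each oocyte's Spearman rho with the mean profile of the other GV oocytes (x axis) and of the other IVM oocytes (y axis). GV replicate 9 (purple) had 9381 genes and lay away from both groups.

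All 12 oocyte markers were above 0 in every one of the 15 oocytes. Of these, 3 were higher (BMP15, KIT and DAZL), 3 lower (FIGLA, ZP3 and NLRP5) and 6 within 2-fold. GV replicate 9 had the lowest GV value of DAZL (0.218 CPM, GV median 25.97) and of DDX4 (2.89 CPM, GV median 39.1). It had the highest GV value of ZP3 (8420 CPM, GV median 1593). ZP2, a coat protein of the egg, stood at 2077 to 3933 CPM (median 3272) in the GV oocytes and 2488 to 5334 CPM (median 3263) in the IVM oocytes. FIGLA, the oocyte transcription factor that drives zona genes, stood at 397 to 1273 CPM (median 746) in the GV oocytes and 20.3 to 60.4 CPM (median 29.96) in the IVM oocytes, with no overlap between the groups. BMP15, a growth factor the oocyte secretes, was at 542 to 1085 CPM (median 809.7) in the GV oocytes and 1320.3 to 3360.3 CPM (median 2158) in the IVM oocytes. Of 22 cumulus and granulosa markers 13 were kept. Marker sums here take every marker of a list with a row, kept or not. For this list the sum was 682 to 1212 CPM in GV oocytes and 405 to 717 CPM in IVM oocytes. STAR, the cholesterol carrier of steroid-making cells, was the largest part of this sum, at 547 to 844 CPM (median 629) before and 175 to 452 CPM (median 326) after culture. Of the 13 markers 3 were higher, 5 lower and 5 within 2-fold. HAS2, which makes the hyaluronan of the cumulus matrix, was higher without overlap, at 9.78 to 26 CPM (median 14) before and 61.1 to 94.8 CPM (median 76.6) after culture (2.17). The other higher ones, PTGS2 (1.44) and GATM (1.34), overlapped between the groups. Besides STAR (-1.05), the lower ones were INHA (-3.28), FST (-2.995), CD44 (-2.53) and GREM1 (-1.07). CD44 did not overlap, at 11.7 to 36.4 CPM before and 0.0686 to 8.07 CPM after culture, while INHA, FST and GREM1 did. The GV oocytes were uneven in INHA, at 0.351 to 59.7 CPM (median 2.52), and in FST, at 0.327 to 42.0 CPM (median 1.27). After culture INHA was at most 4.49 CPM and FST at most 2.26 CPM. GV replicate 9 had the highest sum, and AMH and FOXL2 had no row. The part that cumulus or granulosa RNA plays in the differences was not tested. Summed theca and stroma markers (3 of 11 kept) were 11.2 to 39.7 CPM in GV oocytes and 18.1 to 43.5 CPM in IVM oocytes. Summed endothelial markers (3 of 6 kept) were 271 to 506 CPM in GV oocytes and 21.2 to 74.6 CPM in IVM oocytes. VWF, which carries a clotting factor, was at 159.9 to 336 CPM (median 215) before and 1.92 to 42.1 CPM (median 18.4) after culture. KDR, a receptor for VEGF, was at 50.1 to 238 CPM (median 150.3) before and 1.86 to 27.1 CPM (median 10.4) after culture. TEK, the angiopoietin receptor, was within 2-fold at 6.08 to 32.6 CPM (median 18.9) before and 8.63 to 25.3 CPM (median 14.9) after culture (-0.35). PECAM1, a defining marker of endothelium, was at 0 in 3 of the 7 GV oocytes and at most 0.393 CPM in the rest.

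Of 11852 genes kept (at least 1 CPM in 6 of the 22 libraries), 1880 (15.9%) had an IVM mean at least 2-fold above the GV mean and 3917 (33%) an IVM mean at least 2-fold below it. These genes are called higher and lower in what follows. The measure is the log2 difference of group means with 1 CPM added to each, which understates low genes. In 1172 higher genes (9.89%) and 2281 lower genes (19.2%) no IVM oocyte overlapped a GV oocyte. The lower side also reached further: 1821 genes were at least 4-fold lower and 147 at least 16-fold lower, against 197 and 1 on the higher side. Without GV replicate 9 there were 1940 higher and 3761 lower genes, of which 1662 and 3583 were in the first count as well. Of the genes past 2-fold 32.4% were higher, and this share was 43.8% after trimmed-mean scaling and 52.4% after quantile normalization.

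Over all genes kept the median log2 difference was -0.28, so lists of genes are described relative to that median. With trimmed-mean factors it was -0.05, and after quantile normalization 0.15. The split varied with abundance: in 5 bins of equal size by mean level, from least to most abundant, the share higher went 4.43, 10.3, 16.8, 22.6 and 25.3%, and the share lower was 32.4, 40.8, 33.4, 31.4 and 27.3%. The added 1 CPM limits the difference that the least abundant bin can reach.

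**Figure D2:**
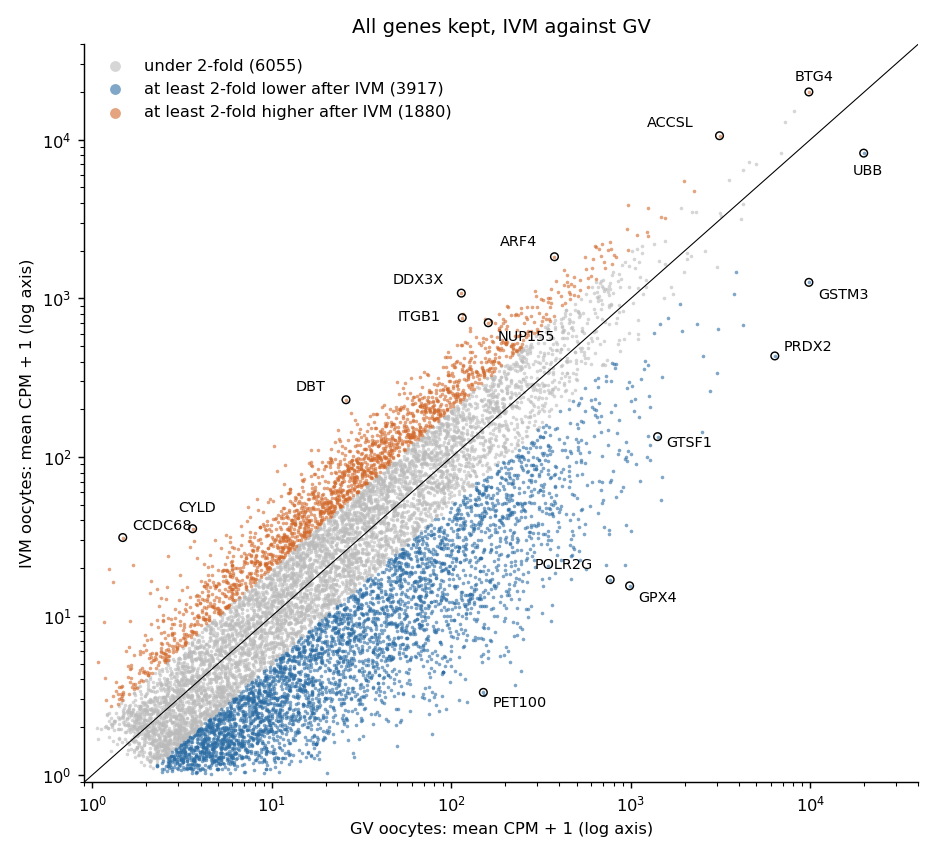
Mean CPM + 1 of each of the 11852 genes in the GV oocytes (x axis) and the IVM oocytes (y axis), both log axes, with the line of equal level. The cloud of 3917 lower genes (blue) extends further from the line than that of the 1880 higher genes (orange); the circled genes carry their symbols.

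Among genes with a symbol and at least 10 CPM in either group, GPX4 had the lowest difference, -5.99. This selenoenzyme repairs oxidised membrane lipids. It was at 306 to 1380.5 CPM (median 1038) in the GV oocytes and 8.34 to 30.4 CPM (median 12.3) in the IVM oocytes, and the reads summed over each group gave 961 CPM (exact 95% Poisson interval 957 to 966) in GV and 14.9 CPM (14.5 to 15.4) in IVM. Those intervals cover counting error only. PET100, which helps assemble cytochrome c oxidase, was at 117 to 178 CPM (median 154) in the GV oocytes and 0.956 to 4.75 CPM (median 1.82) in the IVM oocytes, a log2 difference of -5.51 (given in parentheses for the genes that follow). COA4, another assembly factor of that enzyme, stood at 10.7 to 117 CPM (median 96.4) in the GV oocytes and 0 to 3.56 CPM (median 1.52) in the IVM oocytes (-5.08). Its lowest GV value was that of GV replicate 9, and the other 6 were at 65.9 to 117 CPM (median 101). TMEM11, a protein of mitochondrial inner membrane folds, was at 229 to 455 CPM (median 366) in the GV oocytes and 5.24 to 12.8 CPM (median 7.6) in the IVM oocytes (-5.28). TIMM17B, a channel subunit of the inner membrane translocase, was at 252 to 930.1 CPM (median 773) in the GV oocytes and 11.2 to 26.3 CPM (median 19.5) in the IVM oocytes (-5.12).

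Outside mitochondria the lowest differences fell on genes of varied roles. HRAS, the small GTPase of growth factor signalling, was at 109 to 305 CPM (median 195) in the GV oocytes and 1.49 to 7.53 CPM (median 3.66) in the IVM oocytes (-5.37). EXOSC6, a ring subunit of the RNA exosome that trims RNA from its 3′ end, was at 17.2 to 131 CPM (median 60.9) in the GV oocytes and 0.22 to 2.35 CPM (median 0.582) in the IVM oocytes (-5.43). UCK2 makes nucleotides from salvaged uridine and cytidine, and was at 59.4 to 252 CPM (median 216) in the GV oocytes and 3.35 to 6.4 CPM (median 4.48) in the IVM oocytes (-5.05). YIF1A and TRAPPC5 act in transport between the endoplasmic reticulum and the Golgi. Levels of TRAPPC5 were 137 to 293 CPM (median 189.7) in the GV oocytes and 2.13 to 9.4 CPM (median 5.67) in the IVM oocytes (-4.98). Levels of YIF1A were 11.7 to 138 CPM (median 122) in the GV oocytes and 0.843 to 3.91 CPM (median 1.38) in the IVM oocytes (-5.21). DRC1 and CCDC42 are known from cilia and sperm tails, and their differences were -5.11 and -5.40. None of the genes in these 2 paragraphs had an IVM oocyte as high as any GV oocyte, GV replicate 9 included.

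**Figure D3:**
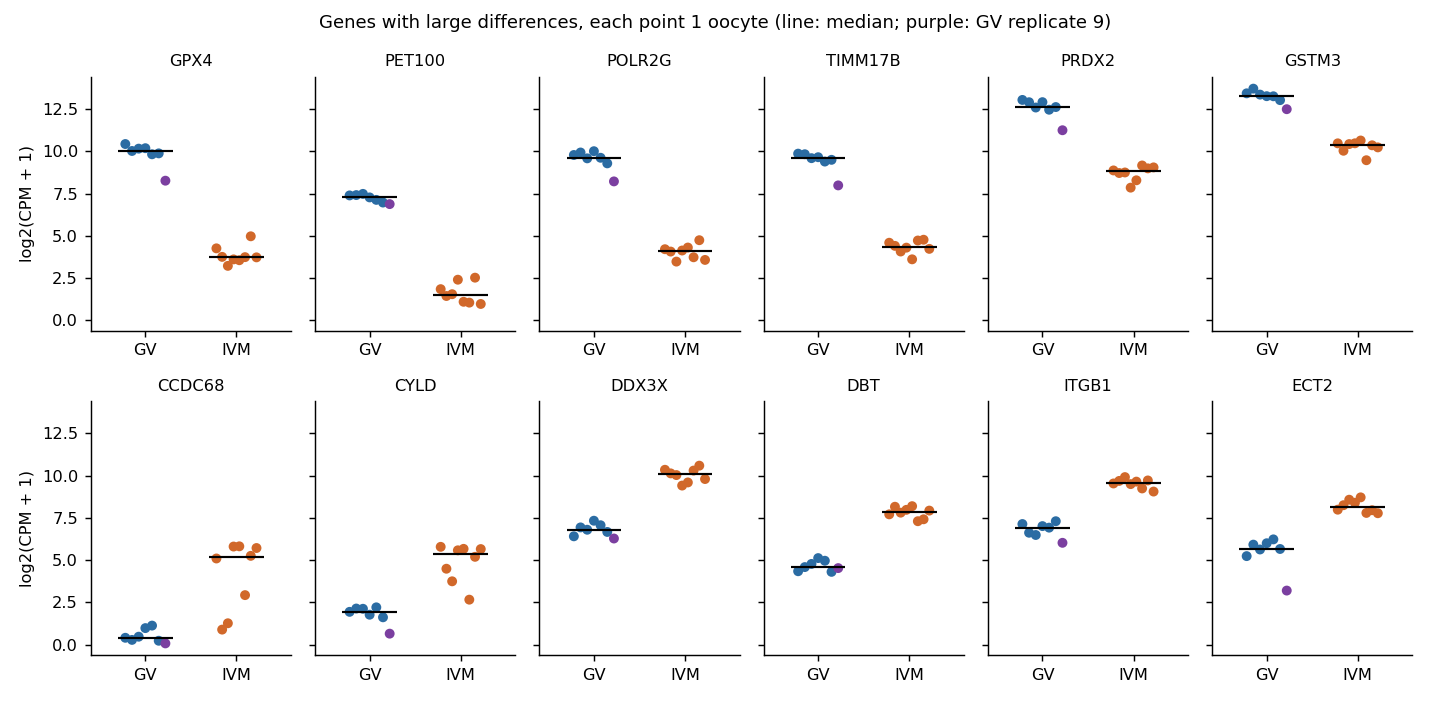
Level of 12 genes in each oocyte as log2(CPM + 1), with a line at each group's median and GV replicate 9 in purple. The upper row is lower after IVM with no overlap; in the lower row CCDC68 overlaps and the other 5 are higher in every IVM oocyte.

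The highest difference was that of CCDC68, 4.40, a gene for a centriole appendage protein. It was at 0.0545 to 1.19 CPM (median 0.327) in the GV oocytes and 0.856 to 55.5 CPM (median 35.3) in the IVM oocytes, and the groups overlapped. IVM replicates 3, 5 and 8 stood at 0.856, 1.41 and 6.63 CPM, and the other IVM oocytes at 33.3 to 55.5 CPM. CYLD removes linear and K63-linked ubiquitin chains. Its levels were 0.572 to 3.63 CPM (median 2.85) in the GV oocytes and 5.34 to 54.3 CPM (median 41.3) in the IVM oocytes (3.29), with no overlap. IVM replicates 3, 5 and 8 were again the lowest of their group, at 21.5, 12.5 and 5.34 CPM. In STIL, named next, the same oocytes were the highest of their group. STIL starts centriole duplication and was at 0.0545 to 25.8 CPM (median 18.6) in the GV oocytes and 67.2 to 154 CPM (median 109) in the IVM oocytes (2.61). CEP76, which limits that duplication, was at 0.0817 to 4.59 CPM (median 3.41) in the GV oocytes and 19.8 to 43.5 CPM (median 27.5) in the IVM oocytes (3.02). ECT2 activates the GTPase RhoA where a cell will divide, and was at 8.2 to 74.1 CPM (median 49.6) in the GV oocytes and 219 to 419.8 CPM (median 278) in the IVM oocytes (2.59). In STIL and CEP76 the lowest GV value, 0.0545 and 0.0817 CPM, was GV replicate 9, and without it the differences were 2.40 and 2.86.

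ITGB1, the beta 1 chain of integrins, was at 64.3 to 157 CPM (median 121) in the GV oocytes and 533 to 965 CPM (median 772) in the IVM oocytes (2.72). CDCP1, a surface glycoprotein phosphorylated by SRC kinases, was at 0 to 4.33 CPM (median 1.38) in the GV oocytes and 6.69 to 57.9 CPM (median 15.8) in the IVM oocytes (3.18). Both were higher in every IVM oocyte than in any GV oocyte. LIG4 seals DNA ends in non-homologous end joining, and SLF2 brings the SMC5/6 complex to damaged DNA. LIG4 stood at 2.18 to 10.05 CPM (median 7.13) in the GV oocytes and 28.8 to 77.7 CPM (median 53.2) in the IVM oocytes (2.73). SLF2 stood at 1.34 to 19.7 CPM (median 12.1) in the GV oocytes and 66 to 129 CPM (median 78.7) in the IVM oocytes (2.92). FASTKD3, a mitochondrial RNA-binding protein, was at 0 in GV replicate 9, at 6.81 to 16.8 CPM (median 10.5) in the other GV oocytes and at 50.2 to 113 CPM in the IVM oocytes. GALC, the lysosomal enzyme that breaks down galactosylceramide, was at 0.109 to 4.88 CPM (median 2.28) in the GV oocytes and 16.6 to 47.3 CPM (median 22) in the IVM oocytes (2.98). TAC1, the precursor of substance P, was at 0 to 3.38 CPM (median 1.16) in the GV oocytes and 0.274 to 37.7 CPM (median 16.8) in the IVM oocytes (2.69), and its groups overlapped. IVM replicates 3, 5 and 8 were lowest in TAC1 too, at 0.274, 0.686 and 2.41 CPM. Of the 1880 higher genes, 557 were under 1 CPM in GV replicate 9, and 428 of those were at 1 CPM or more in each other GV oocyte. The same count over all genes kept was not made, and this oocyte reached 1 CPM in only 9381 of the 13502 genes in the table. The 557 are therefore not read as particular to higher genes.

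The most abundant transcripts covered a wide span of differences. UBB, a polyubiquitin gene, was the most abundant gene before culture, at 16034 to 27839.6 CPM (median 18388) in the GV oocytes and 5023 to 9703 CPM (median 8738) in the IVM oocytes (-1.27). BTG4, the most abundant after culture, encodes the adaptor that brings the CCR4-NOT deadenylase to maternal messenger RNA. It stood at 5675 to 12339 CPM (median 9919) in the GV oocytes and 11543 to 28829 CPM (median 20137) in the IVM oocytes (1.02). The groups overlapped, and without GV replicate 9 the difference was 0.93, within 2-fold, as it was in 6 other alternatives. PTTG1, securin, which guards the ties between chromosomes, was at 1301 to 11580.4 CPM (median 8826) in the GV oocytes and 8158 to 22332 CPM (median 15274) in the IVM oocytes (0.91). Its lowest GV value was GV replicate 9, and the others were at 8029.8 to 11580.4 CPM (median 8935). AURKA, the spindle kinase, was at 5826 to 9106 CPM (median 6603) in the GV oocytes and 6422 to 9274 CPM (median 8573) in the IVM oocytes, and the groups overlapped. GSTM3, a glutathione transferase, was among the top 10 in GV oocytes only, at 5765 to 13386 CPM (median 9831) in the GV oocytes and 710.01 to 1595 CPM (median 1344) in the IVM oocytes (-2.96). PRDX2, a peroxide-reducing enzyme, was at 2431 to 8431 CPM (median 6294) in the GV oocytes and 229.9 to 572 CPM (median 448) in the IVM oocytes (-3.87). DYNLL1, a dynein light chain that many other proteins also bind, was at 3189 to 5204 CPM (median 4229) in the GV oocytes and 452 to 841 CPM (median 685) in the IVM oocytes (-2.65). ACCSL was among the top 10 in IVM oocytes only, at 2359 to 5178 CPM (median 2693) in the GV oocytes and 5206 to 15178 CPM (median 11966) in the IVM oocytes (1.76). Others among the most abundant were within 2-fold: TMSB4X (actin monomer binding) at 0.85, CKS1B (a cyclin-dependent kinase subunit) at 0.68, THAP9 (derived from a transposase) at 0.65 and PAIP1 (a partner of poly(A)-binding protein) at 0.49. Genes such as UBB, TMSB4X and DYNLL1 have close copies in mammalian genomes, and how the counting assigned shared reads is not given in the sources used here.

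Genes were then grouped into 51 lists of complexes and pathways with 2119 entries in the table, of which 2024 passed the filter on low values. These are 2012 different genes, 12 of them in more than 1 list. In 36 lists more members were lower than higher, in 11 more were higher, and 4 were even; over all genes kept 33% were lower and 15.9% higher. A list's median lay on the same side of the median of all genes under every alternative processing in 40 lists, 19 below and 21 above. The other 11 changed side in at least 1 alternative and are given no side here. In those 11, which hold Mediator subunits, RNA exosome, importins and exportins, heat shock chaperones, GPI anchor synthesis, exocyst and tethers, peroxins, one-carbon metabolism, dynein, actin nucleators and ubiquitin conjugating enzymes, only counts and members are described.

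**Figure D4:**
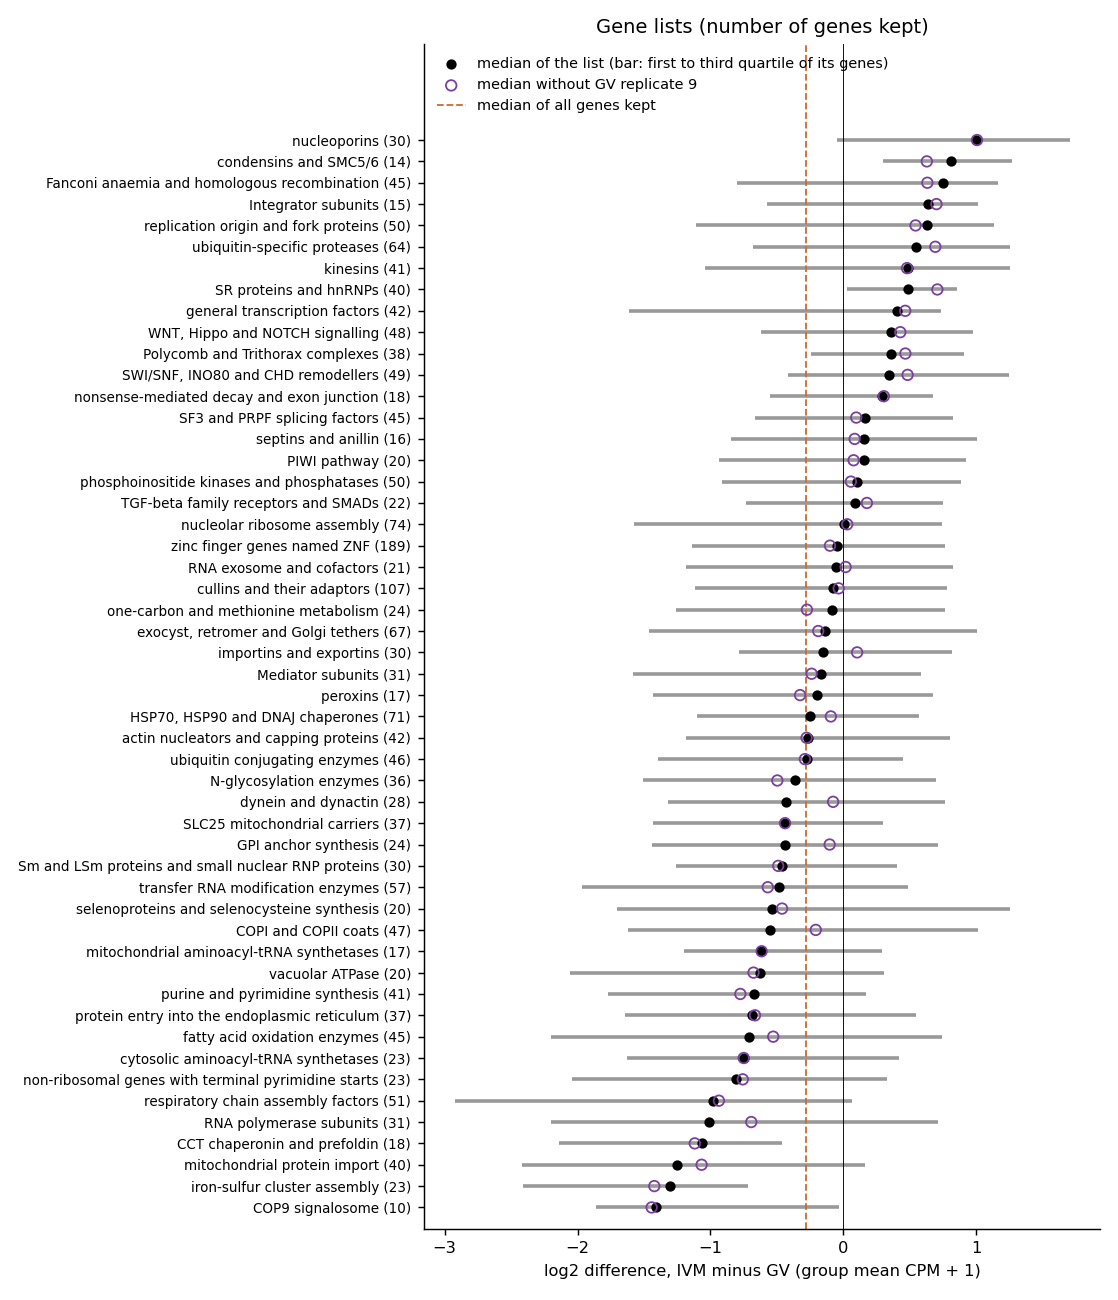
Median log2 difference (IVM minus GV) of each of the 51 lists (black point), its interquartile range (grey bar) and its median without GV replicate 9 (purple ring). The dashed line is the median of all genes, -0.28; COP9 signalosome, iron-sulfur, import and chaperonin genes lie furthest below it and nucleoporins furthest above.

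Of 40 genes for protein import into mitochondria, 23 were lower and 1 was higher, and the list's median was -0.97 relative to all genes (-0.86 without GV replicate 9). In 19 of the 40 the oocytes did not overlap and the IVM side was lower, which held for 19.2% of all genes. TOMM5, a small subunit of the outer membrane pore, was at 102 to 170.4 CPM (median 131) in the GV oocytes and 0.686 to 9.29 CPM (median 6.29) in the IVM oocytes (-4.25). PMPCB went the other way: this catalytic subunit of the peptidase that cuts off import signals was at 12.1 to 48.5 CPM (median 30.1) in the GV oocytes and 56.1 to 130.2 CPM (median 73.9) in the IVM oocytes (1.45). Of 51 assembly factors of the respiratory chain 25 were lower and 2 higher (relative median -0.70). UQCC2, needed to build complex III, was at 279 to 631 CPM (median 444) in the GV oocytes and 8.03 to 29.3 CPM (median 14.9) in the IVM oocytes (-4.75).

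Iron-sulfur cluster assembly makes a cofactor that respiratory complexes and DNA polymerases carry. None of its 23 genes was higher and 16 were lower (69.6%), with a relative median of -1.02. LYRM4, a partner of the enzyme that supplies the sulfur, was at 56.9 to 108 CPM (median 83.1) in the GV oocytes and 1.3 to 14.1 CPM (median 4.82) in the IVM oocytes (-3.33). FDXR passes electrons to ferredoxin. It was at 6.01 to 33.2 CPM (median 13.1) in the GV oocytes and 0 to 1.47 CPM (median 0.0877) in the IVM oocytes (-3.66), and its highest GV value was GV replicate 9. Of 37 SLC25 carriers, which move metabolites across the inner membrane, 13 were lower and 3 higher (relative median -0.15). Both directions occurred. SLC25A39, a glutathione carrier, was at 31.3 to 111 CPM (median 63.6) in the GV oocytes and 0.397 to 14 CPM (median 5.92) in the IVM oocytes (-3.21). SLC25A12, the aspartate-glutamate carrier, was at 2.04 to 15 CPM (median 12.7) in the GV oocytes and 29.1 to 63.3 CPM (median 44.2) in the IVM oocytes (1.90).

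Fatty acid oxidation was lower in 20 and higher in 11 of 45 genes, 24.4% higher against 15.9% of all genes, with a relative median of -0.43. Of the higher genes 2 were without overlap (9.89% among all genes), and without GV replicate 9 the count of higher genes was 8. ACAA1, the thiolase of peroxisomes, was at 113 to 213 CPM (median 148) in the GV oocytes and 0.0992 to 16 CPM (median 2.11) in the IVM oocytes (-4.86). ETFB carries electrons from these enzymes to the respiratory chain and was at 84.6 to 199 CPM (median 114) in the GV oocytes and 5.15 to 17.8 CPM (median 9.26) in the IVM oocytes (-3.35). ACAD11, an acyl-CoA dehydrogenase, was at 0 in GV replicate 9, at 9.34 to 19.3 CPM (median 12.8) in the other GV oocytes and at 26.3 to 65.9 CPM in the IVM oocytes. Of 17 peroxins 5 were lower and 2 higher. PEX16, which starts new peroxisome membrane, was at 10.4 to 30.4 CPM (median 17.6) in the GV oocytes and 0 to 1.88 CPM (median 0.746) in the IVM oocytes (-3.48). PEX5L, a relative of the import receptor PEX5, was at 187 to 279 CPM (median 231) in the GV oocytes and 388 to 665 CPM (median 539) in the IVM oocytes (1.18).

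In protein synthesis the cytosolic enzymes that load amino acids onto transfer RNA held 11 lower and 4 higher genes among 23 (relative median -0.46). FARSA, a subunit of the phenylalanine enzyme, was at 27.2 to 55.2 CPM (median 44.2) in the GV oocytes and 0 to 9.21 CPM (median 2.5) in the IVM oocytes (-3.27). Of the 17 mitochondrial counterparts 5 were lower (29.4%, near the 33% of all genes) and none was higher (15.9% of all genes). Their relative median was -0.34. CARS2, the mitochondrial cysteine enzyme, was at 76.5 to 132 CPM (median 109) in the GV oocytes and 0.149 to 8.27 CPM (median 3.1) in the IVM oocytes (-4.68). Transfer RNA modification enzymes were lower in 23 and higher in 11 of 57 genes (relative median -0.20). QTRT1, which inserts queuine, was at 83.6 to 133 CPM (median 93.9) in the GV oocytes and 0.103 to 6.46 CPM (median 4.07) in the IVM oocytes (-4.35).

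Genes outside the ribosome whose messages are known to start with a run of pyrimidines, as ribosomal protein messages do, were lower in 11 and higher in 3 of 23 (relative median -0.53). EEF1D, which recharges elongation factor 1 with GTP, was at 151 to 226 CPM (median 166) in the GV oocytes and 1.24 to 15.1 CPM (median 6.6) in the IVM oocytes (-4.48). EIF3L, a subunit of initiation factor 3, was at 129 to 873 CPM (median 653) in the GV oocytes and 1231 to 2308 CPM (median 1785) in the IVM oocytes (1.54). Ribosome assembly factors of the nucleolus held 24 lower and 12 higher among 74 genes, both near the background shares, with a relative median of 0.29. NHP2, part of the particles that pseudouridylate ribosomal RNA, was at 159.6 to 359 CPM (median 271) in the GV oocytes and 4.28 to 21.9 CPM (median 8.05) in the IVM oocytes (-4.54). UTP20, a large scaffold of the small-subunit processome, was at 81.1 to 183 CPM (median 150.3) in the GV oocytes and 320.03 to 634 CPM (median 552) in the IVM oocytes (1.80).

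The chaperonin CCT and its partner prefoldin fold new actin and tubulin. Of their 18 genes 10 were lower and 1 was higher, with a relative median of -0.78. PFDN5, a prefoldin subunit, was at 237 to 333 CPM (median 289.8) in the GV oocytes and 24.5 to 52.4 CPM (median 30.5) in the IVM oocytes (-2.94). UXT, a prefoldin-like protein, was at 146 to 225 CPM (median 202) in the GV oocytes and 6.89 to 12.9 CPM (median 10.8) in the IVM oocytes (-4.16). Of 71 heat shock chaperones and their helpers 19 were lower and 8 higher. HSPBP1, which releases nucleotide from HSP70, was at 102 to 225 CPM (median 173) in the GV oocytes and 2.13 to 25.4 CPM (median 12.2) in the IVM oocytes (-3.52). HSPA4L, a nucleotide exchange factor of the HSP110 kind, was at 49.8 to 68 CPM (median 64.9) in the GV oocytes and 158 to 308 CPM (median 246) in the IVM oocytes (1.95).

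Along the secretory path, genes for protein entry into the endoplasmic reticulum were lower in 16 and higher in 5 of 37 (relative median -0.40). EMC6, of the membrane insertase EMC, was at 74.6 to 199 CPM (median 129) in the GV oocytes and 5.57 to 26 CPM (median 14.3) in the IVM oocytes (-3.13). SRP72, of the signal recognition particle, was at 1.36 to 48.7 CPM (median 39.2) in the GV oocytes and 89.3 to 119 CPM (median 99.97) in the IVM oocytes (1.56), and SPCS2, of signal peptidase, at 29.2 to 78 CPM (median 42.3) in the GV oocytes and 126 to 238 CPM (median 183) in the IVM oocytes (1.85). The enzymes of N-glycosylation held 15 lower and 6 higher genes among 36 (relative median -0.08). DPM2, a subunit of the enzyme that makes the mannose donor, was at 169 to 311 CPM (median 196) in the GV oocytes and 12.6 to 37.3 CPM (median 22.6) in the IVM oocytes (-3.10). ALG13, a subunit of the enzyme that adds the second sugar of the chain, was at 35.6 to 122 CPM (median 91.5) in the GV oocytes and 233 to 405 CPM (median 328) in the IVM oocytes (1.79). GPI anchor genes were lower in 9 and higher in 4 of 24, and PIGC, of the first enzyme of that path, was at 114 to 232 CPM (median 214) in the GV oocytes and 3.42 to 16.7 CPM (median 7.32) in the IVM oocytes (-4.40).

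Coat proteins COPI and COPII bud vesicles between the endoplasmic reticulum and the Golgi. Their list held 14 lower and 12 higher genes among 47, and the relative median moved from -0.27 to -0.00208 without GV replicate 9. SAR1A, the GTPase that starts a COPII coat, was at 277 to 613 CPM (median 521) in the GV oocytes and 37.1 to 85.5 CPM (median 49.9) in the IVM oocytes (-3.17). SEC23A, the coat subunit it recruits, was at 13.6 to 28.1 CPM (median 20.8) in the GV oocytes and 86 to 135 CPM (median 114) in the IVM oocytes (2.41). ARF4, a GTPase of the Golgi, was at 277 to 483 CPM (median 370.2) in the GV oocytes and 1473 to 2357 CPM (median 1770.2) in the IVM oocytes (2.29). All 3 were without overlap, 1 lower and 2 higher. Of 67 exocyst, retromer and tether genes 21 were lower and 17 higher. Both directions occurred in a single tether, the COG complex: COG4 was at 34.2 to 166 CPM (median 126) in the GV oocytes and 3.51 to 19.1 CPM (median 6.21) in the IVM oocytes (-3.64). Its partner COG6 was at 13.1 to 64.5 CPM (median 44.9) in the GV oocytes and 131 to 214 CPM (median 161) in the IVM oocytes (1.80). The vacuolar ATPase, which acidifies lysosomes, held 9 lower and 1 higher among 20 genes. Its single higher gene was ATP6V1A, the catalytic subunit, at 14.8 to 23.1 CPM (median 19.3) in the GV oocytes and 50.2 to 86.4 CPM (median 59.7) in the IVM oocytes (1.66). ATP6V1F, a subunit of the same outer part, was at 218 to 585 CPM (median 417) in the GV oocytes and 11.8 to 41.8 CPM (median 18.8) in the IVM oocytes (-4.17).

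In the nucleus the subunits of RNA polymerases I, II and III were lower in 16 and higher in 5 of 31 genes (14 and 4 without GV replicate 9). The relative median was -0.72 with that oocyte and -0.49 without it. POLR2I, a small subunit of polymerase II, was at 114 to 206 CPM (median 166) in the GV oocytes and 3.5 to 10.3 CPM (median 7.31) in the IVM oocytes (-4.25). POLR1B, the second largest subunit of polymerase I, was at 42.8 to 82.7 CPM (median 49.7) in the GV oocytes and 88.7 to 342 CPM (median 148) in the IVM oocytes (1.49). General transcription factors held 13 lower and 7 higher genes among 42, yet their relative median was 0.69, above that of all genes. Within TFIIH, which opens DNA at the start site, GTF2H5 was at 125 to 192 CPM (median 165) in the GV oocytes and 8.05 to 16 CPM (median 9.26) in the IVM oocytes (-3.76). GTF2H3 of the same complex was at 0.109 CPM in GV replicate 9, at 26.9 to 39 CPM (median 30.2) in the other GV oocytes and at 136 to 265 CPM in the IVM oocytes.

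Mediator, the bridge from activators to polymerase II, held 9 lower and 5 higher among 31 genes. MED18, of its head, was at 272 to 328 CPM (median 313) in the GV oocytes and 18.1 to 66.5 CPM (median 31) in the IVM oocytes (-3.01). MED13, of its kinase module, was at 0.218 CPM in GV replicate 9, at 7.37 to 11.8 CPM (median 9.92) in the other GV oocytes and at 21.9 to 42.1 CPM in the IVM oocytes. The Integrator, which cuts nascent RNA, held 4 higher and 3 lower genes among 15 (relative median 0.92). INTS2 was at 0.109 CPM in GV replicate 9, at 7.04 to 17.7 CPM (median 13.8) in the other GV oocytes and at 42.2 to 101 CPM in the IVM oocytes.

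Splicing genes were read in 3 lists. Core proteins of the small nuclear particles were lower in 10 and higher in 2 of 30 (relative median -0.18). The SR proteins and hnRNPs, which choose splice sites, were higher in 9 and lower in 1 of 40 (relative median 0.77), and 14 were higher without GV replicate 9. The difference between these lists was not tested. SNRNP25, of the minor spliceosome, was at 578 to 1315 CPM (median 1012) in the GV oocytes and 20.1 to 66.9 CPM (median 27.2) in the IVM oocytes (-4.87). SNRNP200, the helicase that unwinds U4 from U6, was at 6.16 to 13.5 CPM (median 11.5) in the GV oocytes and 14.4 to 61.1 CPM (median 30.4) in the IVM oocytes (1.39). HNRNPF, which binds runs of G, was at 261 to 469.8 CPM (median 329.9) in the GV oocytes and 787 to 1242 CPM (median 972) in the IVM oocytes (1.54). The single lower member of its list, SRSF1, was at 13.1 to 20.7 CPM (median 16) in the GV oocytes and 3.77 to 12.2 CPM (median 7.26) in the IVM oocytes (-1.10).

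SF3 and PRPF genes, which hold the scaffold of the spliceosome, had 11 lower and 8 higher members of 45 (relative median 0.44). Opposite values met inside SF3B, the complex that binds the branch point. SF3B5, its smallest protein, was at 441 to 715 CPM (median 619) in the GV oocytes and 38 to 55.6 CPM (median 49) in the IVM oocytes (-3.59). SF3B1, its largest, was at 0.218 CPM in GV replicate 9, at 112 to 129 CPM (median 126) in the other GV oocytes and at 348 to 476 CPM in the IVM oocytes. The RNA exosome and its cofactors held 6 lower and 4 higher genes among 21. ZCCHC8, a scaffold of a nuclear exosome cofactor, was at 0.0545 to 10.02 CPM (median 7.69) in the GV oocytes and 17.4 to 33.5 CPM (median 22.3) in the IVM oocytes (1.71). Nonsense-mediated decay and exon junction genes had 3 lower and 2 higher members of 18. SMG1, the kinase of that decay path, was at 15.8 to 35.9 CPM (median 22.3) in the GV oocytes and 38.6 to 82.3 CPM (median 56.4) in the IVM oocytes (1.30).

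Nucleoporins, which form the pores of the nuclear envelope that breaks down when meiosis resumes, had the highest median of the 51 lists. Of 30 genes 15 were higher (50% against 15.9% of all genes) and 3 lower (10% against 33%). Of the higher ones 12 were without overlap, which held for 9.89% of all genes. The relative median was 1.29 (1.21 without GV replicate 9, with 16 higher). NUP155, of the inner ring, was at 68.1 to 214 CPM (median 164) in the GV oocytes and 554 to 877 CPM (median 689) in the IVM oocytes (2.13). NUP160, of the outer ring, was at 19.8 to 46 CPM (median 35) in the GV oocytes and 85 to 277 CPM (median 153) in the IVM oocytes (2.23). NUP62, which lines the central channel, was at 21.6 to 53.9 CPM (median 39.6) in the GV oocytes and 1.3 to 12.7 CPM (median 5.38) in the IVM oocytes (-2.48). AAAS, a nucleoporin at the envelope, was at 47.5 to 234 CPM (median 71.4) in the GV oocytes and 8.45 to 44.6 CPM (median 28.2) in the IVM oocytes (-1.73), and its highest value was GV replicate 9. Importins and exportins, which carry cargo through the pores, were even, with 6 lower and 6 higher of 30. NXF1, which exports messenger RNA, was at 51.9 to 147 CPM (median 119.9) in the GV oocytes and 8.51 to 29.7 CPM (median 17.2) in the IVM oocytes (-2.57).

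Condensins and the related SMC5/6 complex fold and repair chromosomes. Of 14 genes 5 were higher and 2 lower (relative median 1.09). NCAPG, of condensin I, was at 101 to 309 CPM (median 271) in the GV oocytes and 528 to 824 CPM (median 724) in the IVM oocytes (1.46). SMC6 was at 6.92 to 32.8 CPM (median 31.2) in the GV oocytes and 64.1 to 102 CPM (median 89.7) in the IVM oocytes (1.65). NSMCE1, a ubiquitin ligase subunit in the same complex as SMC6, was at 475 to 649 CPM (median 608) in the GV oocytes and 179.9 to 298 CPM (median 228) in the IVM oocytes (-1.37). Fanconi anaemia and homologous recombination genes were higher in 17 and lower in 7 of 45, and in 13 and 10 without GV replicate 9. Their relative median was 1.03. RAD51C, which acts in strand exchange, was at 51.9 to 103 CPM (median 61.9) in the GV oocytes and 209.99 to 333 CPM (median 279) in the IVM oocytes (2.00). XRCC3, the partner of RAD51C, was at 13.1 to 41.4 CPM (median 19.3) in the GV oocytes and 0.794 to 10.1 CPM (median 6.3) in the IVM oocytes (-1.93). RAD51D was lower too, with GV replicate 9 at 103 CPM, the other GV oocytes at 16.8 to 29.1 CPM (median 23.7) and the IVM oocytes at 0.275 to 5.91 CPM.

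Replication proteins, which copy DNA and are next needed after fertilisation, held 15 higher and 13 lower genes among 50 (relative median 0.91). CDC7, the kinase that fires origins, was at 0.109 CPM in GV replicate 9, at 14.3 to 19.96 CPM (median 17.2) in the other GV oocytes and at 37.1 to 76.3 CPM in the IVM oocytes. RFC3, a subunit of the loader of the sliding clamp, was at 145 to 416 CPM (median 387) in the GV oocytes and 17 to 37.7 CPM (median 24.3) in the IVM oocytes (-3.75). POLD2, of DNA polymerase delta, was at 28 to 35.7 CPM (median 31.9) in the GV oocytes and 0 to 3.13 CPM (median 1.62) in the IVM oocytes (-3.66). The PIWI pathway, which guards the germ line against transposons, was even at 5 higher and 5 lower of 20. GTSF1, which helps PIWI proteins cut their targets, was at 1187 to 1701 CPM (median 1417) in the GV oocytes and 60.8 to 193 CPM (median 138) in the IVM oocytes (-3.39). ASZ1, a mitochondrial surface protein of this pathway, was at 7.88 to 54.8 CPM (median 52.2) in the GV oocytes and 109 to 179 CPM (median 124) in the IVM oocytes (1.54).

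Chromatin remodellers were higher in 14 and lower in 8 of 49 genes (relative median 0.62). SMARCB1, a core subunit of SWI/SNF, was at 98.5 to 256 CPM (median 131) in the GV oocytes and 4.43 to 20.2 CPM (median 10.9) in the IVM oocytes (-3.48). PBRM1 and ARID2, which define its PBAF form, differed by 2.10 and 2.19. PBRM1 was at 0.845 CPM in GV replicate 9, at 32.6 to 50.1 CPM (median 38.8) in the other GV oocytes and at 118 to 193 CPM in the IVM oocytes. Polycomb and Trithorax genes held 8 higher and 6 lower among 38 (relative median 0.64). WDR5 and RBBP5 sit side by side in the histone H3 lysine 4 methyltransferases. WDR5 was at 721 to 961 CPM (median 896) in the GV oocytes and 44.4 to 205 CPM (median 112) in the IVM oocytes (-2.95). RBBP5 was at 50.2 to 122 CPM (median 69.4) in the GV oocytes and 184 to 354 CPM (median 253) in the IVM oocytes (1.78). Of 189 ZNF genes 50 were lower and 30 higher, 26.5% and 15.9%, near the shares of all genes.

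Genes of the microtubule motors showed both directions. Kinesins were higher in 13 and lower in 11 of 41 genes, with 9 and 3 of them without overlap, against 9.89% and 19.2% of all genes. Their relative median was 0.77. KIF20A, which acts at the midzone and in cytokinesis, was at 45.7 to 118 CPM (median 104) in the GV oocytes and 256 to 692 CPM (median 399) in the IVM oocytes (2.17). KIF15, which helps hold spindle poles apart, was at 0.109 CPM in GV replicate 9, at 49.2 to 74.6 CPM (median 63.3) in the other GV oocytes and at 197 to 307 CPM in the IVM oocytes. KLC3, a kinesin light chain, was at 21.9 to 51.8 CPM (median 31.9) in the GV oocytes and 0 to 3.66 CPM (median 0.901) in the IVM oocytes (-3.89). Dynein and dynactin held 8 lower and 4 higher genes among 28. DYNLRB1, a light chain, was at 299 to 422 CPM (median 377) in the GV oocytes and 6.58 to 15.7 CPM (median 10.8) in the IVM oocytes (-4.94). DYNC1I2, the intermediate chain such light chains bind, was at 237 to 859.9 CPM (median 779) in the GV oocytes and 1107 to 2470.2 CPM (median 1557) in the IVM oocytes (1.26).

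Septins, anillin and their furrow partners were even, with 4 higher and 4 lower of 16. ANLN, anillin, was at 40.4 to 65.7 CPM (median 48.6) in the GV oocytes and 188 to 344 CPM (median 239) in the IVM oocytes (2.28). SEPTIN9 was at 10.9 to 32.2 CPM (median 17.8) in the GV oocytes and 0.513 to 9.29 CPM (median 3.73) in the IVM oocytes (-1.85). Actin nucleators and binders held 12 lower and 7 higher among 42. ARPC4, of the Arp2/3 nucleator, was at 150.1 to 245 CPM (median 177) in the GV oocytes and 4.83 to 25.6 CPM (median 8.45) in the IVM oocytes (-4.08). WASHC4, of the complex that activates Arp2/3 on endosomes, was at 0.763 CPM in GV replicate 9, at 2.1 to 18.4 CPM (median 13) in the other GV oocytes and at 39.4 to 88 CPM in the IVM oocytes. TMSB10, a relative of the abundant TMSB4X, was at 907 to 1561 CPM (median 1009) in the GV oocytes and 31.5 to 105 CPM (median 73.2) in the IVM oocytes (-3.99). TMSB4X itself was within 2-fold (0.85) and its groups overlapped.

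In the ubiquitin system the COP9 signalosome, which strips NEDD8 from cullin ligases, had the lowest median of the lists, -1.13 relative to all genes. Of its 10 genes 6 were lower and none was higher. COPS6 was at 296 to 465 CPM (median 418) in the GV oocytes and 19.9 to 86.8 CPM (median 39.8) in the IVM oocytes (-3.10). COPS5, the catalytic subunit, was at 8.39 CPM in GV replicate 9, at 73.6 to 212 CPM (median 140.4) in the other GV oocytes and at 8.02 to 14.9 CPM in the IVM oocytes. NEDD8 itself was at 541 to 858 CPM (median 704) in the GV oocytes and 73.9 to 147 CPM (median 96.7) in the IVM oocytes (-2.78). UBE2F, which passes NEDD8 to a cullin, was at 84 to 148 CPM (median 125) in the GV oocytes and 5.32 to 22.4 CPM (median 11) in the IVM oocytes (-3.16). Cullins and their adaptors held 31 lower and 19 higher among 107, near the background. SKP2, the F-box protein that marks p27 for destruction, was at 28.8 to 109 CPM (median 84.2) in the GV oocytes and 276 to 529 CPM (median 307) in the IVM oocytes (2.15).

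Ubiquitin conjugating enzymes were lower in 13 and higher in 2 of 46. UBE2L6, the conjugating enzyme of ISG15, was at 25 to 71.4 CPM (median 51.4) in the GV oocytes and 0.481 to 2.91 CPM (median 0.933) in the IVM oocytes (-4.59). The enzymes that remove ubiquitin were higher in 22 and lower in 9 of 64 (34.4% and 14.1%, against 15.9% and 33% of all genes). Of the higher ones 16 were without overlap, against 9.89% of all genes. Their relative median was 0.83. USP28, known from checkpoint and centrosome surveillance, was at 74.7 to 130.1 CPM (median 109.5) in the GV oocytes and 389.9 to 654 CPM (median 483) in the IVM oocytes (2.24). OTUB1, which also blocks conjugating enzymes, was at 260.1 to 447 CPM (median 415) in the GV oocytes and 15.5 to 64.1 CPM (median 39.1) in the IVM oocytes (-3.33).

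Among metabolic lists, purine and pyrimidine synthesis held 18 lower and 4 higher genes among 41 (relative median -0.39). RRM1, the large subunit of ribonucleotide reductase, was at 23.2 to 89.1 CPM (median 76.9) in the GV oocytes and 253 to 440.3 CPM (median 318) in the IVM oocytes (2.17). DTYMK, which phosphorylates thymidylate, was at 49.7 to 130.2 CPM (median 93.2) in the GV oocytes and 2.63 to 18.4 CPM (median 7.49) in the IVM oocytes (-3.43). GUK1, guanylate kinase, was at 152 to 328 CPM (median 243) in the GV oocytes and 4.46 to 28.5 CPM (median 19.4) in the IVM oocytes (-3.77). One-carbon and methionine metabolism had 7 lower and 4 higher of 24. MTHFD1, a folate enzyme of the cytosol, was at 153 to 296 CPM (median 200.1) in the GV oocytes and 410.3 to 1213 CPM (median 848) in the IVM oocytes (1.87). CTH and CBS make cysteine from homocysteine. CTH was at 18.4 to 52.3 CPM (median 28.9) in the GV oocytes and 89.6 to 185 CPM (median 113) in the IVM oocytes (1.94). The size of the CBS difference varied with 1 oocyte: GV replicate 9 had 146 CPM, the other GV oocytes 6.34 to 20.8 CPM (median 13.2) and the IVM oocytes 0.397 to 9.92 CPM, and its difference went from -3.02 to -1.79 without it.

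Selenoproteins carry selenocysteine, and separate enzymes make that amino acid. The list of both held 8 lower and 6 higher genes among 20 (relative median -0.25). SELENOM, a selenoprotein of the endoplasmic reticulum, was at 17.7 to 69.9 CPM (median 29.1) in the GV oocytes and 0.864 to 7.01 CPM (median 4.11) in the IVM oocytes (-2.77), on the side of GPX4. SEPSECS, which completes selenocysteine on its transfer RNA, was at 15.3 to 27.7 CPM (median 24.2) in the GV oocytes and 56.2 to 113 CPM (median 80.6) in the IVM oocytes (1.79).

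In signalling, receptors and SMAD proteins of the TGF-beta family were even at 4 higher and 4 lower of 22 (relative median 0.37). BMPR1A, a type I receptor for bone morphogenetic proteins, was at 16.1 to 34.6 CPM (median 27.7) in the GV oocytes and 62.1 to 131 CPM (median 89.6) in the IVM oocytes (1.74). SMAD6, which inhibits that signal, was at 19.2 to 29.1 CPM (median 20.4) in the GV oocytes and 2.43 to 8.16 CPM (median 5.14) in the IVM oocytes (-1.93). WNT, Hippo and NOTCH genes held 11 higher and 10 lower of 48 (relative median 0.64). LEF1, a transcription factor of the WNT pathway, was at 11.1 to 32.9 CPM (median 28.5) in the GV oocytes and 71.9 to 156 CPM (median 109.8) in the IVM oocytes (2.00). DLL3, a NOTCH ligand, was at 81.3 to 134 CPM (median 89.2) in the GV oocytes and 0.942 to 4.3 CPM (median 3.31) in the IVM oocytes (-4.68). Phosphoinositide kinases and phosphatases had 9 higher and 12 lower of 50 (relative median 0.39). PIK3C2A, a class II kinase of this family, was at 10.8 to 23.4 CPM (median 14.7) in the GV oocytes and 38.6 to 157 CPM (median 91.7) in the IVM oocytes (2.50).

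The lists were also read oocyte by oocyte, as the median log2(CPM + 1) of a list's genes in each. In 14 lists every IVM oocyte lay below every GV oocyte, in 2 every IVM oocyte lay above, and 35 overlapped. These levels are not set against all genes, whose median log2 difference was itself -0.28. Among the 14, N-glycosylation was at -0.08 relative to that median, and COPI and COPII coats at -0.27 (-0.00208 without GV replicate 9). One-carbon metabolism, which is given no side, is also among the 14. The 2 above were nucleoporins, at 5.50 to 6.12 in the GV oocytes and 6.45 to 7.33 in the IVM oocytes, and condensins with SMC5/6, at 5.17 to 6.05 in the GV oocytes and 6.38 to 6.87 in the IVM oocytes. Without GV replicate 9 the SR proteins and hnRNPs joined them, that oocyte being at 6.15, the other GV oocytes at 5.02 to 5.39 and the IVM oocytes at 5.77 to 6.38. Among those below, mitochondrial protein import was at 5.96 to 6.44 in the GV oocytes and 3.93 to 4.87 in the IVM oocytes. Respiratory chain assembly was at 5.08 to 5.37 in the GV oocytes and 3.17 to 4.05 in the IVM oocytes. Chaperonin and prefoldin genes were at 7.64 to 7.87 in the GV oocytes and 5.89 to 6.51 in the IVM oocytes. These gaps were wider than the range within either group. The COP9 signalosome overlapped, at 5.35 to 6.96 in the GV oocytes and 5.35 to 6.23 in the IVM oocytes, and its lowest GV oocyte was GV replicate 9.

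**Figure D5:**
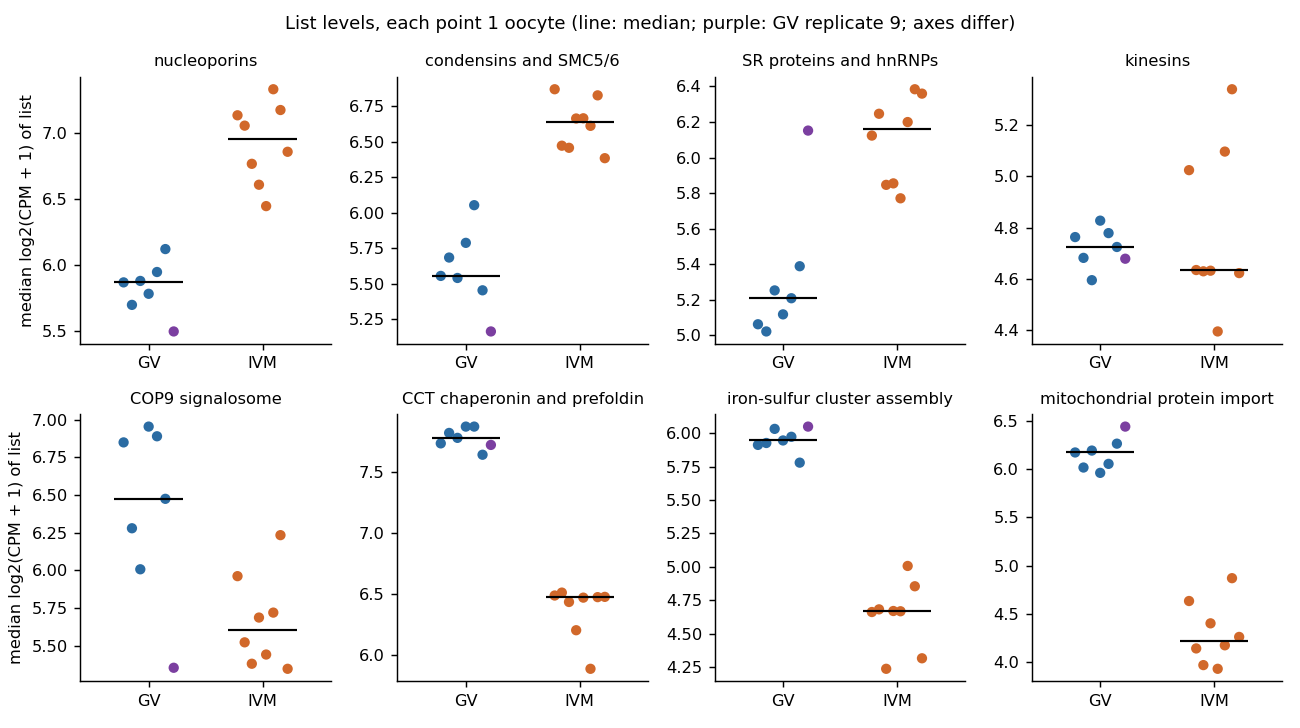
Median log2(CPM + 1) of 8 lists in each oocyte, with a line at the group median and GV replicate 9 in purple; the axes differ between panels. Nucleoporins and condensins are higher in every IVM oocyte, chaperonin, iron-sulfur and import genes lower in every IVM oocyte, and kinesins overlap.

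Some genes reached 1 CPM in the oocytes of 1 stage only. At 1 CPM or more in every GV oocyte and under 1 CPM in every IVM oocyte were 120 genes, 105 of them with a symbol, and 3 genes showed the reverse, all without a symbol. Without GV replicate 9 the first count was 212. The NUDT14 gene, for an enzyme that hydrolyses UDP-glucose, had the highest GV median among them, at 18.5 to 40.1 CPM (median 23.6) in the GV oocytes and 0 to 0.549 CPM (median 0.394) in the IVM oocytes. Summed over the IVM oocytes it still had 95 reads, so under 1 CPM does not mean absent. TSSC4, a chaperone in the making of the U5 splicing particle, was at 7.57 to 26.3 CPM (median 18.6) in the GV oocytes and 0 to 0.703 CPM (median 0.24) in the IVM oocytes. Other members are better known outside oocytes. KRT73, a hair follicle keratin, was at 5.11 to 41.7 CPM (median 11.7) in the GV oocytes and 0 to 0.16 CPM (median 0) in the IVM oocytes. S100A12, a calcium-binding protein of neutrophils, was at 5.2 to 25 CPM (median 10.2) in the GV oocytes and 0 to 0.562 CPM (median 0.15) in the IVM oocytes. Of 12 blood and immune markers 2 were kept, CD3E and FCER1G, and the list's sum was 15.8 to 65.0 CPM in GV oocytes, highest in GV replicate 9, and 1.84 to 7.79 CPM in IVM oocytes. In GV replicate 9 CD3E held 64.7 CPM of the sum and FCER1G was at 0. Haemoglobin gene HBA1 was at most 0.556 CPM in any GV oocyte. The part of RNA from other cells in KRT73 and S100A12 was not tested. A count of 0 allows a level of up to 0.0763 to 0.149 CPM in an IVM library (3 reads), for counting error only.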

How the data were processed

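The authors deposited 1 table of values per gene and oocyte, named for TPM, which holds CPM: values of a library are whole multiples of 1 step shared by every gene, to within 0.01 read, for 100% of values in 14 of the 15 oocytes and 99.985% in the other. Library totals were recovered from that step. Per the submitters' processing notes the tools were HISAT2 2.2.1, Trim Galore 0.6.7, featureCounts 2.0.1, FastQC and edgeR, with no role or order given, and the build was the mouse build GRCm39. The gene names are cattle symbols: 13356 of 13502 are current in the RefSeq table of assembly ARS-UCD2.0, 41 are older and 105 had no match. No coordinates, gene lengths or sequences were used, so the planned look at protein and promoter composition was not run.

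Columns were matched through each sample's description and groups taken from titles. GV replicate 9 was grouped by its title. Of the labelled GV and IVM samples, 4 were not analysed here. No column of values was left over. No pair of oocytes within a group was a duplicate (smallest chi-square per degree of freedom of recovered reads 38.0). Genes with at least 1 CPM in 6 of the 22 libraries were kept (11852). Of these, 130 share their values with another gene in every column, in 57 sets. The log2 difference is that of group means plus 1 CPM. Each group counted as 1 sample, so no test was run, on CPM or on recovered reads, and the spread between oocytes may be technical.

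The report names genes by a rule. It considered genes that have a symbol and average 10 CPM or more in GV or IVM oocytes, and took the 20 largest log2 differences on either side, up to 2 members of each list per direction past 2-fold, the 10 most abundant genes of each group and the cell type markers. It took 233 besides markers, and those printed were chosen for known function. Some genes that the rule took are not reported here. NUDT14, TSSC4, KRT73 and S100A12, the named genes that reached 1 CPM in GV oocytes only, lie outside the rule and were chosen after their values were seen. The members and lists were chosen with earlier results of these data known.

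Alternatives were pseudocounts of 0.1 and 5 CPM, trimmed-mean factors, quantile normalization, group medians, means of log2 values, no filter, a filter of 5 CPM, leaving out each oocyte, and, added after seeing the data, 1 of each set of identical genes. Steps were tested on simulated data. Python 3.11.15 with pandas 2.3.3, numpy 2.4.6 and scipy 1.17.1 was used.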

Additional observations from a re-analysis of the deposited data

Results flagged for a closer look

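Each measure of an oocyte and 155 of the genes named in the report were searched for an oocyte far from the others of its group. The rule was Dixon's ratio of the gap to the whole range at its 95% critical value. Markers such as DDX4, DAZL, ZP3, KIT, NLRP5, INHA, FST, CD44 and GREM1 were not searched, so the genes listed below are not complete. Of 328 group-by-measure sets, 55 held such an oocyte, and chance gives about 5%. GV replicate 9, whose title and treatment label conflict, accounted for 40 of them. It had the fewest genes at 1 CPM or more (9381), the lowest rho with the mean of the other GV oocytes (0.787) and the highest summed blood and immune markers (65.0 CPM). CD3E alone held 64.7 CPM of that sum, and FCER1G and CD68 were at 0 in this oocyte.

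Genes in which GV replicate 9 lay far below the other GV oocytes were, in CPM in that oocyte, ALG13 35.6, ASZ1 7.88, CDC7 0.109, COG6 13.1, DYNC1I2 237, EIF3L 129, GTF2H3 0.109, KIF15 0.109, LIG4 2.18, MED13 0.218, NCAPG 101, NUP155 68.1, OTUB1 260.1, PBRM1 0.845, PTTG1 1301, RFC3 145, RRM1 23.2, SF3B1 0.218, SLC25A12 2.04, SMC6 6.92, SNRNP200 6.16, TIMM17B 252, YIF1A 11.7 and ZCCHC8 0.0545. The genes in which it lay far above them were AAAS 234, AURKA 9106, CBS 146, CD3E 64.7, DPM2 311, ETFB 199, PTGS2 44.2, RAD51D 103, RBBP5 122, S100A12 25, SELENOM 69.9, SMAD6 29.1 and SMARCB1 256. All but AURKA and PTTG1 of these are genes past 2-fold in the comparison.

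Other oocytes stood apart in single values. GV replicate 2 had 10.5% of its reads in its 10 most abundant genes, and IVM replicate 10 had the highest summed theca and stroma markers of its group (43.5 CPM). IVM replicate 9 was far above the rest of its group in ARPC4 25.6, CBS 9.92, DTYMK 18.4, GPX4 30.4 and SNRNP25 66.9 CPM. IVM replicate 1 was far above the rest of its group in EXOSC6 2.35 and KRT73 0.16 CPM. IVM replicate 8 was far above the rest of its group in FDXR 1.47, POLR1B 342 and SKP2 529 CPM. GV replicate 6 was far above the rest of its group in RAD51C 103 CPM. IVM replicate 3 was far above the rest of its group in UBE2L6 2.91 CPM. GV replicate 7 was far below the rest of its group in UXT 146 CPM.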

How the results depend on the processing

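The count of higher genes was 1813 to 1979 when each oocyte was left out in turn and 3119 after quantile normalization, against 1880. The count of higher genes without overlap was 1869 after quantile normalization, against 1172. The percentage of 2-fold genes that were higher was 43.8 with trimmed-mean factors and 52.4 after quantile normalization, against 32.4. The count of genes at 1 CPM or more in every GV oocyte and in no IVM oocyte was 120. It became 35 after quantile normalization, 20 with the filter of 5 CPM, 212 without GV replicate 9 and 123 to 212 over all oocytes left out. Quantile normalization and the trimmed-mean factors raised the median of all genes, as given in the report. The other counts stayed within 1.5 times. Of the named genes, 155 were run through the 24 alternatives (FCER1G and GATM had no value with the filter of 5 CPM). None of these 155 that was past 2-fold changed sign. The cell type markers KIT, DAZL, ZP3, NLRP5, INHA, FST, CD44 and GREM1 were not among the 155. Among the 155, BTG4 (0.63 after quantile normalization, 0.93 without GV replicate 9), SRSF1 (-0.54 after quantile normalization), UBB (-0.98 with trimmed-mean factors), STAR (-0.81 with trimmed-mean factors), GATM (pseudocount of 5 CPM) and DYNC1I2 (group median) came within 2-fold in at least 1 alternative. For the tethers list the median relative to all genes was -0.0891 with group medians, against 0.15, and the cause was not tested. No paired analysis was possible because the shared replicate numbers come with no donor or culture and the results come from no test. Depth limits genes near 0 in IVM oocytes, where 3 reads are worth at most 0.149 CPM.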
